A study of Mus musculus with 2 samples.

Results

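Cleavage factors I and II are the protein complexes that, with the polyadenylation machinery, cut a nascent pre-mRNA and so fix where its 3'UTR ends. Their 5 genes were taken by name: Clp1 and Pcf11 of cleavage factor II, and Nudt21, Cpsf6 and Cpsf7 of cleavage factor I. They are 5 of the 23571 genes counted, and all 5 passed the filter of at least 50 reads over both libraries, as did 16829 genes in all. RNA came from mTEChi, the medullary thymic epithelial cells with high MHC class II, of 1 lentigenic B6 mouse. This mouse carried hairpins against Clp1 and the ZsGreen reporter under the doxycycline-dependent TRE3G promoter, with the TetOn3G activator driven by EF1. From the age of 3 weeks its food held 2 g of doxycycline per kg, and feeding lasted 2 weeks. The Clp1 knockdown library was made from GFP-positive cells and the control (Ctr) library from GFP-negative cells, so the doxycycline and the animal were common to both. Whether the GFP-negative cells carried the transgene was not tested.

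As background, the cleavage and polyadenylation specificity factor (CPSF) recognises the AAUAAA hexamer near a poly(A) site and cuts the RNA, whereas cleavage factor I binds UGUA motifs upstream of the site and influences which of several sites is used. Nudt21 is the small subunit of cleavage factor I that reads UGUA, and it pairs with either of the larger subunits Cpsf6 and Cpsf7. In cleavage factor II, Pcf11 binds the tail of RNA polymerase II and acts in transcription termination, and Clp1 is an RNA kinase that also associates with the tRNA splicing endonuclease. A gene that ends at a proximal site gives a short 3'UTR, and one that ends at a distal site gives a long 3'UTR.

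The poly(A) sites of the members are shown because the parts of each transcript that were counted begin and end there. On the mm9 genome, the lengths of the earlier coding exons and of the last exons matched the deposited part lengths exactly for 5 of 5 members. The 5'UTR was not compared, because a longer first exon was trimmed to the deposited 5'UTR length. The 5' ends given here follow that length. Clp1 (NM_133840) lay on chromosome 2 from 84563279 to 84567425 on the minus strand, with 3 exons. Pcf11 (NM_029078) had 16 exons on chromosome 7 from 99792222 to 99818422 on the minus strand, and Nudt21 (NM_026623) had 7 exons on chromosome 8 from 96543303 to 96560939 on the minus strand. Cpsf6 (NM_001013391) had 10 exons on chromosome 10 from 116781724 to 116814029 on the minus strand, and Cpsf7 (NM_172302) had 10 exons on chromosome 19 from 10599734 to 10622225 on the plus strand. Each line gives the last 30 bases of 3'UTR up to a site, read 5' to 3' along the transcript, with the poly(A) signal AATAAA or ATTAAA in capitals where a search of the transcript strand found one.
Clp1, annotated end (chr2:84563279-84563308): attattttAATAAAtatgattgtgatagaa
Pcf11, proximal site (chr7:99792764-99792793): aattataAATAAAaaatatttttgctatcc
Pcf11, annotated end (chr7:99792222-99792251): catacatgtAATAAActgaatgatgaacaa
Nudt21, annotated end (chr8:96543303-96543332): gtttctcATTAAActctgaaaagtcttaga
Cpsf6, proximal site (chr10:116786364-116786393): tctgAATAAAgcaaatctgcataaatggta
Cpsf6, annotated end (chr10:116781724-116781753): tattgaaAATAAAaacaaagttttggtaat
Cpsf7, proximal site (chr19:10622087-10622116): gatttgtttgtctttctgataggttgaaaa
Cpsf7, annotated end (chr19:10622196-10622225): atAATAAAtggggtgtgagctgtttacgga
All 5 annotated ends and the proximal sites of Pcf11 and Cpsf6 held a signal, which began 21 to 28 bases before the site. These letters were not in the window of the proximal site of Cpsf7. Of 44586 ends of protein-coding GENCODE transcripts, 44.3% held either hexamer in the same window (35.6% AATAAA and 9.83% ATTAAA). In the 100 bases before a site, TGTA (UGUA in RNA) was found 5 times at the proximal site of Pcf11 and 1 time at its annotated end, 1 time at each site of Cpsf6, and 0 and 2 times at the proximal and annotated sites of Cpsf7. It occurred 2 times each at the ends of Clp1 and Nudt21, and at least once in 43.4% of all ends.

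The knockdown library held 37524730 reads and the Ctr library 28464803 reads counted over 30794 RefSeq transcripts. Since each group is 1 library, the differences have no replicate check and carry no p-value, and 95% intervals cover the counting error of PCR reads only. The markers of thymic medullary epithelium were present in both libraries, with 0 of 15 at 0 reads, 4 called 2-fold higher and 1 lower. The rule for a call is given below, and it called 19.1% of all genes tested higher and 18.6% lower. Counts near those shares do not set a list apart. Markers of several other cell types were mostly lower in the knockdown library: 9 of 9 endothelial genes and 9 of 12 thymocyte genes were 2-fold lower, as were 6 of 7 fibroblast and mural genes. The summed level of the endothelial list was 70.9 CPM (reads scaled to the library total) in the knockdown library and 746 CPM in Ctr. The sum for thymocytes was 173 CPM in the knockdown library and 544 CPM in Ctr, and that for fibroblasts and mural cells was 133 CPM in the knockdown library and 475 CPM in Ctr. Red cell markers summed to 102 CPM in the knockdown library and 3155 CPM in Ctr, where 2 alpha globin genes share the same reads. All 4 red cell genes and 3 of 5 B cell genes with enough reads were 2-fold lower, as were 4 of 9 genes of dendritic cells and macrophages (1 higher) and 5 of 9 genes of cortical epithelium (1 higher). The summed level of the dendritic cell and macrophage list went the other way, at 498 CPM in the knockdown library and 421 CPM in Ctr. No marker of these lists was at 0 in either library. Of 12 genes of general thymic epithelium 6 were 2-fold higher in the knockdown library and 0 lower, with sums of 5702 CPM there and 3970 CPM in Ctr. Epcam, Krt5 and Krt14 were among the genes called higher in both this list and the medullary list. The part of these markers in the values of the cleavage factors was not tested, and in such bulk RNA fewer cells of a type and less RNA per cell cannot be told apart.

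The first question was how much Clp1 mRNA the GFP-positive cells held, and how the other cleavage factor genes stood beside it. Log2 ratios are knockdown over Ctr after division by size factors (1.14 for the knockdown library and 0.877 for Ctr), and a gene was called when its ratio was at least 2 either way with an interval that excluded 0. Of the 5 members 2 were called lower (Clp1 and Cpsf7) and 1 higher (Cpsf6), in a comparison that called 18.6% of all 16829 genes lower, 19.1% higher and 37.7% in either direction. The median log2 ratio of the 5 was 0.33, and that of all genes tested was 0.00. The subunits of each factor thus did not share a direction, and a call was not rare among all genes.

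Clp1 had 812 reads in the knockdown library and 1573 reads in Ctr. After scaling this was 712 reads in the knockdown library and 1794 reads in Ctr, or 39.7% of the Ctr level (36.4% to 43.2%), with a log2 ratio of -1.33 (-1.46 to -1.21). That ratio stood at percentile 13.9 of all genes tested. The paper describes the profiled mouse as the pup that showed reduced Clp1 mRNA in GFP-positive against GFP-negative mTEChi. A lower Clp1 level is therefore not independent of the choice of this mouse. All 3 counted parts of the Clp1 transcript were lower by like amounts. The earlier coding exons (606 bp) had 263 reads in the knockdown library and 552 reads in Ctr, a log2 ratio of -1.45 (-1.67 to -1.23). The last exon (1096 bp), which holds the remaining coding sequence and the 3'UTR, had 520 reads in the knockdown library and 974 reads in Ctr, a log2 ratio of -1.28 (-1.44 to -1.13). The 5'UTR (128 bp) held only 15 reads in the knockdown library and 29 reads in Ctr, with a log2 ratio of -1.33 (-2.33 to -0.38). The intervals of the 3 parts overlapped, and last-exon reads changed against earlier-exon reads by 0.16 on the log2 scale (-0.10 to 0.43). No distal 3'UTR was counted for Clp1, although GENCODE also lists a Clp1 transcript that ends further downstream, at 84562261.

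Pcf11, the partner of Clp1 in cleavage factor II, did not pass the 2-fold rule as a whole transcript. It had 1587 reads in the knockdown library and 653 reads in Ctr, a log2 ratio of 0.90 (0.77 to 1.04), which was 1.87 times the Ctr level (1.71 to 2.05). Its parts, however, differed among themselves more than those of any other member. The earlier exons (4446 bp) had 1307 reads in the knockdown library and 555 reads in Ctr, a log2 ratio of 0.86 (0.71 to 1.0). The 5'UTR (292 bp) had 86 reads in the knockdown library and 29 reads in Ctr, a log2 ratio of 1.19 (0.57 to 1.85). These parts therefore stood near the ratio of the whole transcript. The upstream part of the last exon (524 bp) had 118 reads in the knockdown library against 9 reads in Ctr, a log2 ratio of 3.33 (2.36 to 4.50). The distal 3'UTR (542 bp) had 57 reads in the knockdown library and 54 reads in Ctr, a log2 ratio of -0.30 (-0.86 to 0.26). Hence the last exon of Pcf11 split at the proximal site, with the upstream part higher in the knockdown library and the distal part not told apart between libraries at this depth.

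**Figure D1:**
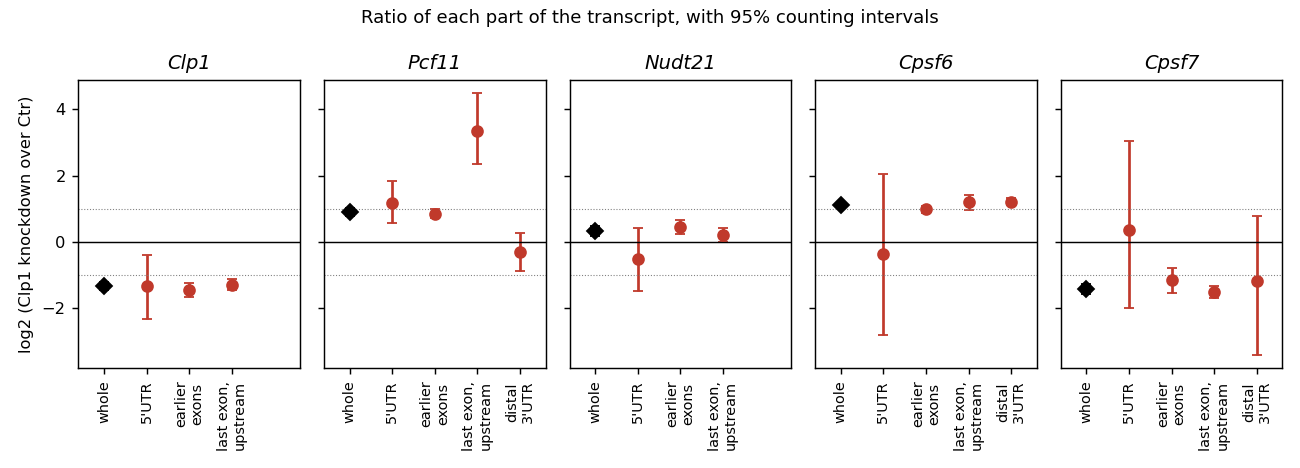
Log2 ratio (knockdown over Ctr) of the whole transcript (diamond) and of each counted part (circles) for the 5 members, with 95% counting intervals; dotted lines mark a ratio of 2 either way. The upstream part of the Pcf11 last exon lay at 3.33 and its distal 3'UTR at -0.30, whereas the 3 parts of Clp1 lay between -1.45 and -1.28.

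Nudt21, the UGUA-binding subunit, was the member with the smallest difference. It had 981 reads in the knockdown library and 602 reads in Ctr, a log2 ratio of 0.33 (0.18 to 0.47), and was not called. Its earlier exons (662 bp) had 497 reads in the knockdown library and 281 reads in Ctr, a log2 ratio of 0.44 (0.23 to 0.66). The last exon (302 bp) had 426 reads in the knockdown library and 283 reads in Ctr, and its log2 ratio of 0.21 (-0.01 to 0.43) did not exclude 0. The 5'UTR (147 bp) had 20 reads in the knockdown library and 22 reads in Ctr, a log2 ratio of -0.52 (-1.47 to 0.43). No distal 3'UTR was counted for Nudt21.

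The larger subunits of cleavage factor I went in opposite directions. Cpsf6 had 6003 reads in the knockdown library and 2151 reads in Ctr, the most of any member, and was higher by a log2 ratio of 1.10 (1.03 to 1.17). Its 3 longer parts all stood near that value. The earlier exons (1469 bp) had 2583 reads in the knockdown library and 1008 reads in Ctr, a log2 ratio of 0.98 (0.87 to 1.09). The upstream part of the last exons (350 bp) had 620 reads in the knockdown library and 208 reads in Ctr (log2 ratio 1.20, 0.97 to 1.43). The distal 3'UTR (4640 bp) had 2647 reads in the knockdown library and 879 reads in Ctr (log2 ratio 1.21, 1.10 to 1.32). The 5'UTR of Cpsf6 (75 bp) had only 4 reads in each library.

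Cpsf7 had 533 reads in the knockdown library and 1103 reads in Ctr, 37.2% of the Ctr level (33.5% to 41.3%), and was lower by a log2 ratio of -1.43 (-1.58 to -1.28). This was at percentile 12.9 of all genes tested, so its ratio was close to that of the targeted Clp1. Its transcripts NM_172302 and NM_001164272 carried the same reads in each library, so they could not be told apart. The upstream part of the last exons (2103 bp) held most of the reads, with 408 in the knockdown library and 896 in Ctr, a log2 ratio of -1.51 (-1.69 to -1.34). The earlier exons (1253 bp) had 94 reads in the knockdown library and 161 reads in Ctr, a log2 ratio of -1.15 (-1.54 to -0.78). Both long parts of Cpsf7 were thus lower, with intervals that overlapped. The 5'UTR (139 bp) had 5 reads in the knockdown library and 3 reads in Ctr, and the distal 3'UTR (109 bp) had 4 reads in the knockdown library and 7 reads in Ctr, too few to show a direction. Tmem216, which encodes a protein of the ciliary transition zone, overlaps Cpsf7 on the opposite strand and was the only gene that overlapped a member. It had 660 reads in the knockdown library and 111 reads in Ctr, a log2 ratio of 2.19 (1.9 to 2.5), opposite in sign to Cpsf7. The sources used here do not say whether counting used the strand.

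Base composition and the choice of scale moved with these values. The median log2 ratio of all genes tended to be lower at higher GC content, being 0.50 in the bin of lowest GC and -0.53 in the bin of highest GC out of 20 bins. Cpsf6 had a GC content of 38.5% and stood in the lowest bin. With its bin's median subtracted, its log2 ratio was 0.60, no longer 2-fold, and with genes of like transcript length as the scale it was 0.95. Pcf11 (43.0% GC) was then at 0.55 and Nudt21 (47.5% GC) at 0.12. Clp1 (45.4% GC) stood at -1.68 and Cpsf7 (49.0% GC) at -1.51 by the same subtraction, so both kept their direction and a ratio past 2-fold. Setting the median of the epithelial genes to 0 shifts each log2 ratio by -0.93, which put Cpsf6 at 0.17, Pcf11 at -0.03 and Nudt21 at -0.60, and Clp1 and Cpsf7 at -2.26 and -2.36. Under the 11 alternatives tried, Clp1 and Cpsf7 were at least 2-fold lower in 11 each, and Cpsf6 was at least 2-fold higher in 8.

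The second question was how abundant the members were relative to each other, which needs levels per length, given here as RPKM (reads per kilobase of transcript, scaled to the counted reads of the library). In the knockdown library Cpsf6 and Nudt21 were the most abundant, at 24.5 RPKM (23.9 to 25.1) and 23.5 RPKM (22.1 to 25.1), with overlapping intervals. Clp1 followed at 11.8 RPKM (11 to 12.7), then Pcf11 at 7.29 RPKM (6.93 to 7.65) and Cpsf7 at 3.94 RPKM (3.61 to 4.29). In Ctr the order was led by Clp1 at 30.2 RPKM (28.7 to 31.7) and Nudt21 at 19 RPKM (17.5 to 20.6). Cpsf6 at 11.6 RPKM (11.1 to 12.1) and Cpsf7 at 10.8 RPKM (10.1 to 11.4) followed with overlapping intervals, and Pcf11 was lowest at 3.95 RPKM (3.66 to 4.27). Thus Clp1 ranked 3 of 5 in the knockdown library and 1 in Ctr, and Cpsf7 ranked 5 in the knockdown library and 4 in Ctr. Among the 16236 genes tested that had a length, Clp1 was at percentile 68.2 by level in the knockdown library and 85.7 in Ctr. A read was counted only if it lay within 1 exon. When levels were divided by the positions at which a 50-base read could start, Nudt21 (34.0) passed Cpsf6 (26.5) in the knockdown library. No other place in the order changed by that count. Read density was uneven along the transcripts, so the order in Ctr also depended on the part used. On the earlier exons alone, Ctr densities were 32.0 RPKM for Clp1, 24.1 for Cpsf6, 14.9 for Nudt21, 4.51 for Cpsf7 and 4.39 for Pcf11. There Cpsf6 stood above Nudt21, and Cpsf7 near Pcf11.

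**Figure D2:**
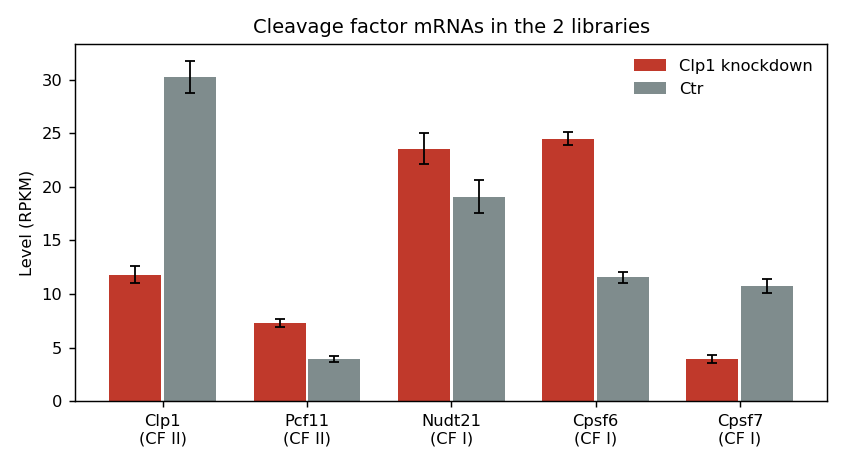
Level of each member (RPKM) in the Clp1 knockdown library and in Ctr, with 95% Poisson counting intervals on single libraries; CF I and CF II are cleavage factors I and II. Clp1 was at 11.8 RPKM in the knockdown library and 30.2 RPKM in Ctr, and Cpsf7 was at 3.94 RPKM in the knockdown library and 10.8 RPKM in Ctr.

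Ratios between members of the same library do not depend on the size factors. By whole-transcript RPKM, Cpsf6 was 6.21 times Cpsf7 in the knockdown library and 1.08 times in Ctr, a change of 5.78-fold (5.14 to 6.49). In other words, Cpsf6 made up 86.1% of the summed level of both large subunits in the knockdown library and 51.8% in Ctr. On the earlier exons alone, Cpsf6 stood at 46.9 RPKM and Cpsf7 at 2.00 RPKM in the knockdown library. In Ctr they stood at 24.1 RPKM and 4.51 RPKM. The near-equal levels in Ctr thus held for whole transcripts and not for the earlier exons. The sum itself was 28.4 RPKM in the knockdown library and 22.3 RPKM in Ctr, and Nudt21 stood to that sum as 0.828 in the knockdown library and as 0.853 in Ctr. The level of the small subunit relative to both large ones together was therefore nearly the same in these libraries, although the relative share of the large subunits was not. Relative to each large subunit alone, by whole-transcript levels, Nudt21 was 0.961 times Cpsf6 in the knockdown library and 1.65 times in Ctr. It was 5.97 times Cpsf7 in the knockdown library and 1.77 times in Ctr. In cleavage factor II, Clp1 was 1.62 times Pcf11 in the knockdown library and 7.64 times in Ctr, a log2 change of -2.24 (-2.42 to -2.05). These ratios are of mRNA and say nothing of the subunits as proteins.

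The third question was whether the members' own 3'UTRs differed, since the study measured 3'UTR length as a d3'UTR ratio. This divides the density of distal 3'UTR reads by that of last-exon reads upstream of the proximal site. Of the 3 members with a distal 3'UTR, 1 changed by 2-fold, and it was lower (Pcf11), where 12.7% of 7670 transcripts with at least 10 last-exon reads in each library were called lower and 14.2% higher. Pcf11 had a d3'UTR ratio of 0.467 in the knockdown library and 5.80 in Ctr, a log2 change of -3.63 (-4.92 to -2.47). That change was at percentile 5.68 of the 7029 transcripts for which one was defined, whose median was 0.03. The Ctr value of Pcf11 was at percentile 96.7 of all transcripts in Ctr, and its knockdown value at percentile 48.3 in the knockdown library. The knockdown value thus lay near the middle of its library and the Ctr value near the top of its own. A transcript that holds the distal 3'UTR also holds the upstream part, so a ratio above 1 is not a share of long transcripts. Ratios above 1 were found for 23.0% of transcripts in the knockdown library and 24.8% in Ctr. Whether the Pcf11 change was one of 3'UTR length was not tested.

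The Pcf11 change rested on the 9 upstream reads of Ctr. Read density there was 0.603 RPKM, below the 4.39 RPKM of the earlier exons and the 3.50 RPKM of the distal 3'UTR of the same library. In the knockdown library the upstream density was 6.0 RPKM, the earlier exons stood at 7.83 RPKM and the distal 3'UTR at 2.80 RPKM. The upstream part against the earlier exons was thus 0.766 in the knockdown library and 0.138 in Ctr, a log2 change of 2.48 (1.49 to 3.65) at percentile 96.6. Pcf11 was the only member called in this comparison, in which 9.31% of 14958 transcripts with at least 50 reads in each of both parts were called higher and 5.72% lower. With the earlier exons in place of the upstream part as the reference, the distal 3'UTR of Pcf11 was still lower in the knockdown library, by a log2 change of -1.16 (-1.74 to -0.57). The direction was therefore the same with either reference, and its size was not. GENCODE lists a transcript, Pcf11-002, that ends at 99792770, inside the bases shown above for the proximal site.

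**Figure D3:**
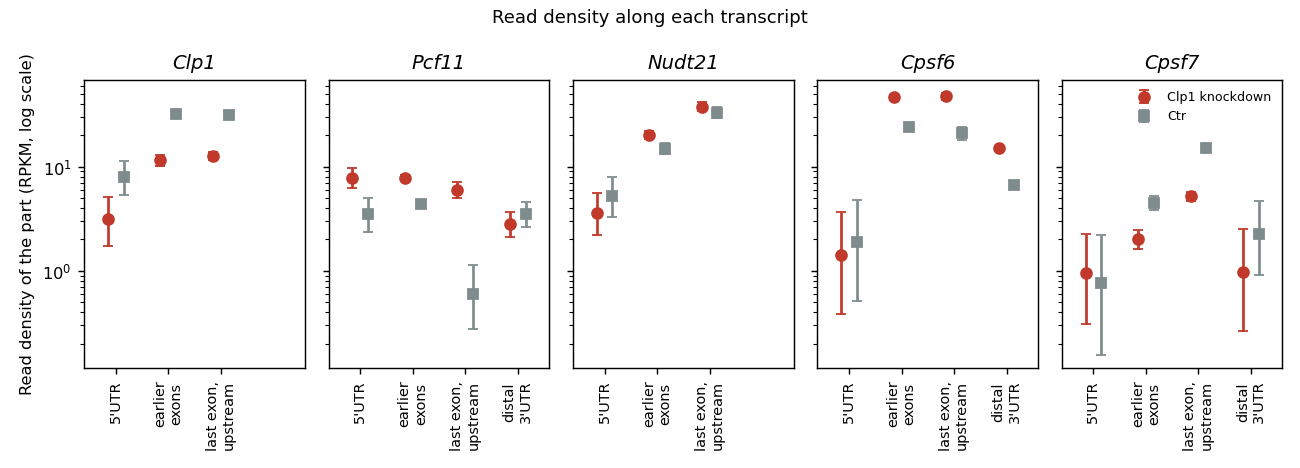
Read density (RPKM, log scale) of each counted part of the 5 members in the knockdown library (circles) and in Ctr (squares), with 95% Poisson intervals. In Pcf11 the upstream part of the last exon stood at 6.0 RPKM in the knockdown library and at 0.603 RPKM in Ctr, where it was the lowest part of that transcript.

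Cpsf6 and Cpsf7 showed no such change. The d3'UTR ratio of Cpsf6 was 0.322 in the knockdown library and 0.319 in Ctr, a log2 change of 0.01 (-0.24 to 0.27), so a 2-fold change either way lay outside its interval. With the earlier exons as the reference the log2 change was 0.23 (0.08 to 0.39). The d3'UTR ratio of Cpsf7 was 0.189 in the knockdown library and 0.151 in Ctr, and its log2 change of 0.33 (-1.9 to 2.31), which rested on those few distal reads, left a 2-fold change either way within the interval. By read start positions the ratio of Cpsf6 was 0.234 in the knockdown library and 0.232 in Ctr, which moved both levels and not the change between them. The upstream part against earlier exons changed by less than 2-fold in Clp1, Nudt21, Cpsf6 and Cpsf7, with log2 changes from -0.36 to 0.22, each with an interval that held 0.

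**Figure D4:**
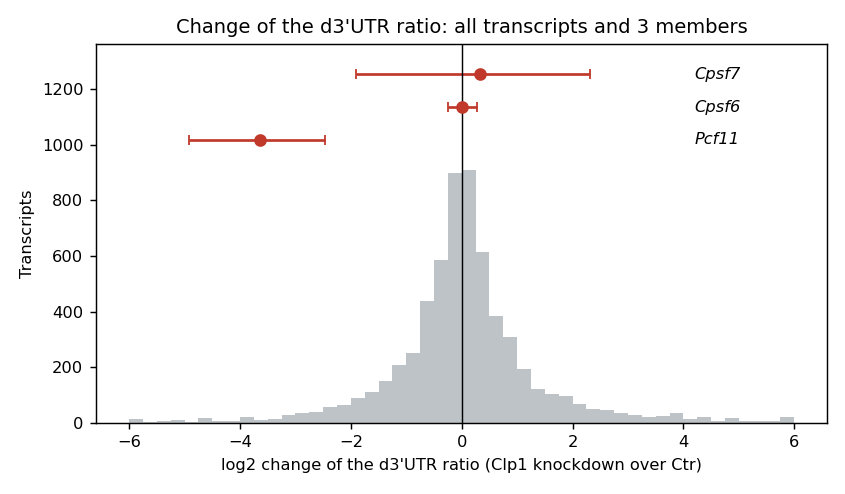
Distribution of the log2 change of the d3'UTR ratio (knockdown over Ctr) over the 6196 transcripts with a finite value, values beyond 6 being drawn at the edge, and the 3 members with a distal 3'UTR (circles) with exact conditional 95% intervals. Pcf11 lay at -3.63, Cpsf6 at 0.01 and Cpsf7 at 0.33.

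The other genes of the cleavage and polyadenylation machinery were set beside the members. Of 15 such genes, all of which passed the filter on reads, 2 were 2-fold higher and 1 lower, and their median log2 ratio was 0.12. Of all genes tested, 19.1% were called higher and 18.6% lower, so these counts do not set the 15 genes apart. Cpsf3, the endonuclease that makes the cut, had 3077 reads in the knockdown library and 1124 reads in Ctr, a log2 ratio of 1.07 (0.98 to 1.17). Papola, which encodes the chief poly(A) polymerase of the nucleus, had 4823 reads in the knockdown library and 1808 reads in Ctr, a log2 ratio of 1.04 (0.96 to 1.12). Sympk, the scaffold of CPSF, had 437 reads in the knockdown library and 673 reads in Ctr, and its log2 ratio of -1.0 (-1.18 to -0.83) lay at the threshold. Within CPSF the 7 genes ran from -1.0 to 1.07, with a median of -0.16. The 4 genes of the cleavage stimulation factor, which binds downstream of the cut, ran from -0.84 (Cstf1) to 0.55 (Cstf2), none of them called. The poly(A) polymerases, the nuclear poly(A) binding protein Pabpn1 and Rbbp6 ran from 0.12 to 1.04. Clp1 and Cpsf7 thus had lower ratios than any of the other 15 genes. Cpsf6 had a higher one, but its interval overlapped those of Cpsf3 and Papola. The spread over all genes tested reached from -2.76 at percentile 5 to 3.45 at percentile 95. On the epithelial scale Cpsf3 and Papola are no longer 2-fold higher, since it shifts each ratio by -0.93. The same shift takes further genes past 2-fold lower. Before it these stood at -0.16 (Cpsf1), -0.23 (Cstf2t), -0.36 (Wdr33), -0.49 (Cstf3), -0.71 (Cpsf4) and -0.84 (Cstf1). The order of the genes stays the same, but the counts of genes 2-fold higher or lower depend on the scale.

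**Figure D5:**
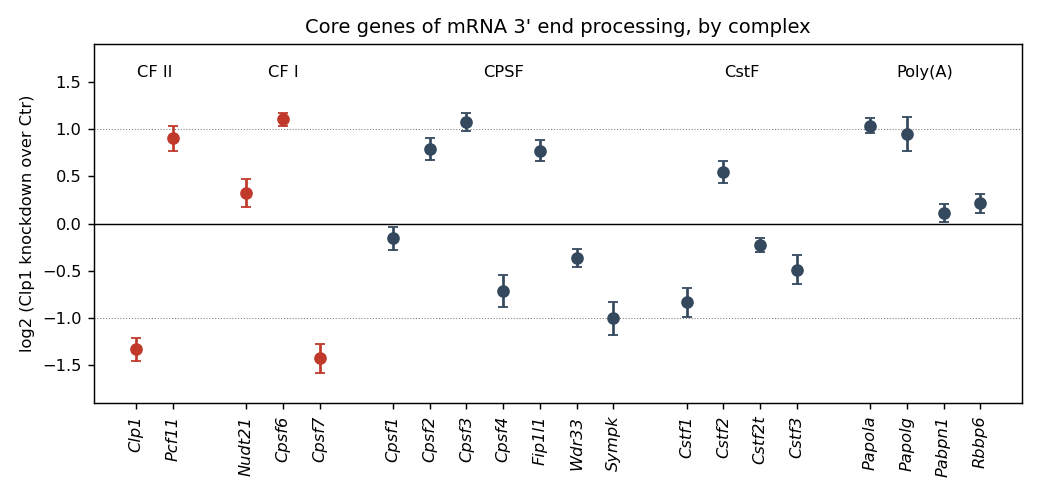
Log2 ratio (knockdown over Ctr) of the members (red) and of 15 other core genes of 3' end processing (dark), by complex, with 95% counting intervals; dotted lines mark a ratio of 2 either way, and all points shift by -0.93 when epithelial genes are set to a median of 0. Clp1 at -1.33 and Cpsf7 at -1.43 were the lowest of the genes drawn. Cpsf6 at 1.10 was the highest, with an interval that overlapped those of Cpsf3 and Papola.

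The tRNA splicing endonuclease is the other known partner of Clp1. Its subunit Tsen15 had 458 reads in the knockdown library and 45 reads in Ctr, a log2 ratio of 2.97 (2.53 to 3.44). Tsen34 stood at -0.17 (-0.27 to -0.07), and Tsen54 at 0.00 (-0.21 to 0.22). Of 7 other factors the study had screened for an effect on 3'UTR length, Ddx17, an RNA helicase, was lower at -1.20 (-1.28 to -1.11), and the other 6 were not called. Hairpins in a microRNA backbone act through the microRNA pathway, and of its 9 genes 1 was called. Ago4, an Argonaute protein, had 205 reads in the knockdown library and 26 reads in Ctr, a log2 ratio of 2.60 (2.01 to 3.25). Of 12 housekeeping genes 0 were called, and their median was 0.01. For comparison with the counts of these lists, 37.7% of all genes tested were called in either direction.

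The genes closest to Clp1 by level in both libraries, measured as the Euclidean distance of log2 RPKM among 15822 genes with reads in each, were Rln3, Zmiz2 and Arid5a. Rln3, which encodes a relaxin peptide, stood at 11.6 RPKM in the knockdown library and 29.2 RPKM in Ctr (distance 0.058). Zmiz2, a coregulator of nuclear receptors, stood at 11.8 RPKM in the knockdown library and 31.4 RPKM in Ctr (distance 0.059), and Arid5a, an RNA-binding protein, at 12.1 RPKM in the knockdown library and 31.6 RPKM in Ctr (distance 0.072). With 2 libraries such likeness says only that these levels were close.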

How the data were processed

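Total RNA of sorted mTEChi of 1 mouse (CD45-negative, high MHC class II, low or intermediate Ly51) was made into 2 libraries with the SMARTer low-input and Nextera kits and sequenced from 1 end. The submitters' processing notes name Bowtie 1.0.0, bedtools, DESeq and the mm9 build. The authors deposited raw counts of reads lying within the exons of 30794 RefSeq transcripts, and the same counts for the parts of 27567 transcripts with the length of each part. The upstream part is the last coding exon with the 3'UTR up to the most proximal listed poly(A) site, and the distal part is the remainder. A further deposited table holds the authors' normalized values, folds of Ctr over knockdown and p-values, and was not used. Every value column could be assigned to a library.

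Symbols were matched by RefSeq identifier for 30212 transcripts, and the transcript with most reads (the longer in a tie) stood for a gene; the 874 repeated identifiers were left out except from totals and size factors. Size factors were medians of ratios. Intervals of ratios are Clopper-Pearson 95% intervals, those of d3'UTR and paired ratios are exact conditional intervals from Fisher's method (R 4.3.3), and those of levels are Poisson intervals. edgeR 4.0.16 supplied only TMM and upper-quartile scaling; 1 library per group leaves no test. Coordinates and sequences came from the mm9 genome with GENCODE vM1, and GC content was known for 82.8% of genes tested. The calls were tested on simulated reads that varied by counting error only, which cannot check them against other variation between 2 single libraries. Named were the 5 members, genes that overlap them, the 3 genes nearest to Clp1, and up to 4 called genes per list of 3' end, screened, microRNA and housekeeping genes; some items are not reported here. The members and lists were chosen with earlier results of these data known. Alternatives covered scaling, base composition, level, length, parts, transcripts, depth and read minimum. Python 3.11.15, numpy 2.4.6, pandas 2.3.3, scipy 1.17.1 and matplotlib 3.10.9 were used.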

Additional observations from a re-analysis of the deposited data

How the results depend on the processing

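Of 93 alternative values, 76 stayed within the interval of the reported value, or within 1.5 times of a reported count, and 17 moved. None turned a call to the opposite direction, but Cpsf6 was at least 2-fold higher in only 8 of 11 alternatives. Pcf11 and Nudt21, which were not called, changed sign with the epithelial median at 0. Library totals, TMM, upper-quartile and housekeeping scaling, the sum of the parts, summed transcripts and thinning of the knockdown library moved no member. With the epithelial median at 0, the log2 ratios were -2.26 for Clp1, -0.027 for Pcf11, -0.60 for Nudt21, 0.17 for Cpsf6 and -2.36 for Cpsf7. With the median of like GC content subtracted they were -1.68 for Clp1, 0.55 for Pcf11, 0.12 for Nudt21 and 0.60 for Cpsf6. Cpsf6 also moved to 1.02 against genes of like level and to 0.95 against genes of like transcript length. A minimum of 200 reads left 2098 genes 2-fold higher in place of 3213, as fewer genes were tested. The d3'UTR change of Pcf11 was -1.16 against the earlier exons. By read start positions the d3'UTR ratio of Cpsf6 was 0.234 in the knockdown library and 0.232 in Ctr, and Nudt21 ranked 1 and Cpsf6 ranked 2 by level in the knockdown library. The cause of these moves was not tested.

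No paired analysis was possible because each group is 1 library, and for the same reason no library was left out. Depth limits the 5'UTR of Cpsf6 (4 reads in each library), the 5'UTR of Cpsf7 (5 reads in the knockdown library and 3 in Ctr) and its distal 3'UTR (4 reads in the knockdown library and 7 in Ctr). The upstream part of Pcf11, with 9 reads in Ctr, carries its d3'UTR change.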

Other observations

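Several genes that lie next to the members on the genome were looked up after the members' values were seen. Ankrd42, an ankyrin repeat gene on the same strand as Pcf11 and 6570 bp downstream of its end, had 431 reads in the knockdown library and 26 reads in Ctr, a log2 ratio of 3.67 (3.10 to 4.30). Zdhhc5, a palmitoyltransferase gene 6924 bp downstream of the longest Clp1 transcript on the same strand, had 3826 reads in the knockdown library and 1470 reads in Ctr, a log2 ratio of 1.0 (0.91 to 1.09). Lyz1, a lysozyme gene 51800 bp downstream of Cpsf6, stood at -0.29 (-0.34 to -0.25). Sdhaf2, whose start lies 35 bp from that of Cpsf7 on the opposite strand, had 1519 reads in the knockdown library and 820 reads in Ctr (0.51, 0.39 to 0.64), and Ogfod1, 159 bp from the start of Nudt21 on the opposite strand, had 127 reads in each (-0.38, -0.74 to -0.01). These neighbours thus did not share a direction.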
